A study of Rattus norvegicus with 8 samples.

Results

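Nppa and Nppb encode the cardiac natriuretic peptides, the hormones through which a loaded heart signals to the kidney and the vessels. They were followed by their Ensembl rat gene IDs, ENSRNOG00000008176 for Nppa and ENSRNOG00000008141 for Nppb, which are 2 of the 21549 genes counted in every library. The libraries came from heart tissue of Sprague Dawley rats, an outbred laboratory strain, at 3 months of age, with 4 rats in normoxia (the controls) and 4 in chronic hypoxia, that is, lowered oxygen over a long period. No transgene or deletion is named for either group. The sources used here do not give the oxygen level, how long the exposure lasted or which part of the heart was taken. The question was how far the 2 transcripts differed between hypoxic and normoxic hearts, and whether they did so in every animal.

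Atrial natriuretic peptide, the product of Nppa, is stored in granules of atrial myocytes and released when the atrial wall is stretched. Nppa is active in both atrium and ventricle of the embryo, falls to a low level in the ventricle after birth, and is switched on again in ventricular myocytes under pressure or volume overload. Brain natriuretic peptide, the product of Nppb, is made in atrium and ventricle and its transcript responds quickly to wall stress. Both peptides act on the guanylyl cyclase receptor natriuretic peptide receptor A, raise cyclic GMP, relax vessels and promote the excretion of salt and water. Sustained hypoxia constricts the pulmonary arteries and loads the right ventricle, which is one setting in which both genes are commonly measured.

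The pair lie next to each other on chromosome 5 in the same orientation, with no protein-coding gene between them in the RefSeq gene table (assembly GRCr8). Clcn6, a chloride-proton exchanger gene, is the next protein-coding gene beyond Nppa. The stretches upstream of the genes are shown to set out which known cardiac motifs each of the neighbouring promoters carries. They were taken from RefSeq on build GRCr8, plus strand, 5′ to 3′, with the capitals marking the motifs found. The Nppa stretch is chr5:163711934-163712183, the 250 bases up to the transcription start. The Nppb stretch is chr5:163699758-163699954, 197 bases that end 54 bases before the start used for Nppb in the promoter table, where a longer gene model begins.
Nppa: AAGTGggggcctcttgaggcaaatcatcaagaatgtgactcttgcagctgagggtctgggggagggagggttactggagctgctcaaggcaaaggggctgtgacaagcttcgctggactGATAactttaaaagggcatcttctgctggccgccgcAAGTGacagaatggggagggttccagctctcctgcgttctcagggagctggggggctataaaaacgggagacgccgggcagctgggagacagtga
Nppb: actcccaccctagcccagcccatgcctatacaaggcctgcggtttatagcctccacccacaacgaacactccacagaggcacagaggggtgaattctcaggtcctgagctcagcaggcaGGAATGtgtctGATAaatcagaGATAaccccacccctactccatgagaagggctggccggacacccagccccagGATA

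Motifs were searched on both strands of the 300-base window from 250 bases before to 50 after the start. GATA, the core bound by GATA4 and its relatives, occurred 1 time in the Nppa window, beginning 131 bases before the start. It occurred 3 times in the Nppb window, beginning 120, 109 and 57 bases before the start. Of all 33469 RefSeq promoter windows of this length, 60.5% held GATA at least 1 time. AAGTG, the core bound by the cardiac homeobox factor Nkx2-5, occurred at 250 and 95 bases before the Nppa start. In the Nppb window it was found only after the start, on the minus strand, and 46.2% of all windows held it. CATTCC, the M-CAT element bound by TEAD factors, was found in the Nppb window alone of the pair, on the minus strand as GGAATG, beginning 131 bases before the start, and 14.2% of all windows held it. The T-box element AGGTGTGA, the hypoxia-inducible factor core ACGTG and the AP-1 element TGANTCA had no match in either window. Nor had the cyclic AMP element TGACGTCA (which does not contain the hypoxia core ACGTG). The CArG box was sought only as the strict pattern CCWWWWWWGG, where W is A or T, and had no exact match in either window. Near matches were not counted, and the Nppa stretch holds ctttaaaagg shortly after its GATA, 1 base off that pattern. These are matches of letters and not measured binding sites.

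The 8 libraries held between 26229304 and 32160710 counts. Nppa and Nppb are given as CPM (a gene's share of the TMM-scaled library size, in the usual CPM unit) where libraries are compared, and as the deposited FPKM, which also divides by gene-model length, where the 2 genes are compared with each other. On the second principal component of log2 CPM over all tested genes, hypoxia libraries 1 and 2 lay at −37.9 and −29.8 and hypoxia libraries 3 and 4 at 29.3 and 27.9, on either side of the normoxia libraries at −1.01 to 8.10, so the log2 fold changes of both genes are also given without each hypoxia pair. The files do not pair IDs with symbols and the gene table matched 0 of the 21549 IDs. Markers of atrium, ventricle and other cell types, and the receptors, processing enzymes and transcription factors of the pathway, could therefore not be given values. As Nppa is itself an atrial transcript, the share of atrial tissue in each library was not tested. In bulk tissue, more cells that express a gene and more RNA per cell cannot be told apart.

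Nppa was higher in every hypoxic heart than in every normoxic heart. The normoxia libraries 1 to 4 stood at 29.0, 61.0, 68.4 and 43.6 CPM, from 974, 1860, 2100 and 1332 counts. The hypoxia libraries 1 to 4 stood at 195, 354, 177 and 339 CPM, from 5554, 10234, 4629 and 9465 counts. The groups did not overlap: the lowest hypoxic heart was 2.59 times the highest normoxic one. Of all genes tested, 17.3% had all 4 hypoxia libraries above all 4 normoxia libraries. The normoxic mean was 50.5 ± 17.7 CPM and the hypoxic mean 266 ± 93.3 CPM (SD, n = 4 each). In edgeR's quasi-likelihood test Nppa rose by a log2 fold change of 2.40 (SE 0.31, Benjamini-Hochberg adjusted p = 7.58e-04), which is 5.28-fold with a 95% interval of 3.26-fold to 8.53-fold. For scale, 17.7% of the 14214 genes tested were called higher in hypoxia (adjusted p under 0.05), and 33.0% were called in either direction.

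Nppb, in contrast to that pattern, overlapped widely between the groups. The normoxia libraries 1 to 4 stood at 76.6, 166, 74.3 and 75.1 CPM, from 2571, 5068, 2279 and 2297 counts. The hypoxia libraries 1 to 4 stood at 412, 178, 62.3 and 147 CPM, from 11744, 5144, 1626 and 4101 counts. Hypoxia library 1 was the highest of all 8 hearts and hypoxia library 3 the lowest of all 8. Only 2 hypoxic hearts, libraries 1 and 2, exceeded the highest normoxic heart, library 2, and 3 of 4 exceeded the normoxia mean. The means were 98.0 ± 45.4 CPM in normoxia and 200 ± 150 CPM in hypoxia (SD, n = 4 each). The log2 fold change of 1.03 (SE 0.49) did not pass the test (edgeR quasi-likelihood adjusted p = 0.135, unadjusted 0.0635). Its 95% interval, from −0.07 to 2.12, spans a fold of 0.953 to 4.36, so a rise of that size and the absence of one were both within the error.

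**Figure D1:**
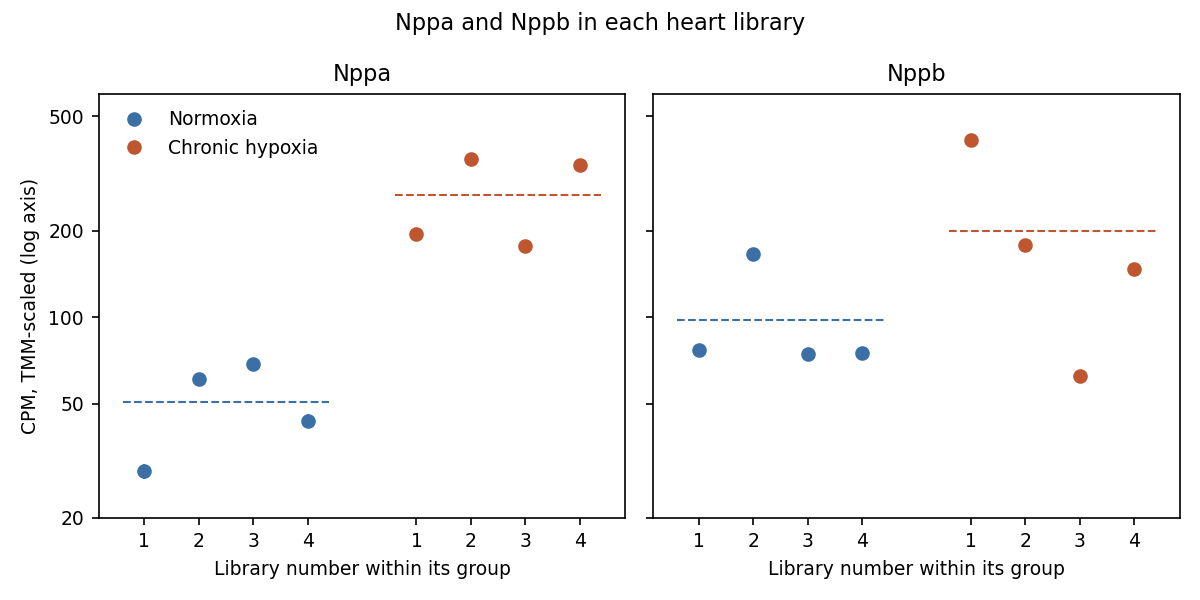
CPM of Nppa (left) and Nppb (right) in each library, on a log axis, with normoxia in blue and chronic hypoxia in orange. Dashed lines are group means of 4 libraries, and vertical bars, mostly hidden by the points, are 95% Poisson counting intervals. All 4 hypoxia points of Nppa lie above all 4 normoxia points, whereas Nppb ranges from 62.3 to 412 CPM in hypoxia around normoxia values of 74.3 to 166 CPM.

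The 95% exact Poisson interval of a single library's value had a half-width of 1.94% to 6.33% of the value for Nppa and 1.81% to 4.89% for Nppb, covering counting error only. Between libraries of a group, which differ by animal, dissection and preparation as well as by counting, the coefficient of variation of Nppa was 35.1% in normoxia and 35.0% in hypoxia. That of Nppb was 46.3% in normoxia and 74.8% in hypoxia. Nppb in hypoxia covered a 6.61-fold range from lowest to highest.

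This variation was large beside that of most genes already in normoxia. The SD of log2 CPM in normoxia was 0.56 for Nppa and 0.57 for Nppb, against a median of 0.13 over all tested genes, and 95.7% and 95.9% of genes had a smaller SD. In hypoxia the SD of Nppa was 0.52, close to its normoxia value, while the median gene had 0.23 and 86.0% of genes had a smaller SD. The SD of Nppb in hypoxia was 1.12, with 98.1% of genes below it. In normoxia the spread of Nppb came mainly from library 2, as the other 3 normoxic hearts lay between 74.3 and 76.6 CPM.

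The hypoxic hearts were ordered differently by the 2 genes. For Nppa, libraries 2 and 4 (354 and 339 CPM) lay close together above libraries 1 and 3 (195 and 177 CPM), and each of these pairs takes 1 library from either side of the second principal component. For Nppb, libraries 1 and 2 (412 and 178 CPM) lay above libraries 4 and 3 (147 and 62.3 CPM). These are the same pairs that lay on either side of the second principal component. Relative to the normoxia mean CPM, hypoxia libraries 1 to 4 were at 3.86, 7.02, 3.51 and 6.72 times for Nppa. The same libraries were at 4.20, 1.82, 0.636 and 1.50 times for Nppb. Hypoxia library 1 was therefore raised by a like factor in both genes, whereas library 3 was raised in Nppa and below the normoxia mean in Nppb. In normoxia the orders differed as well, with Nppa highest in library 3 and Nppb highest in library 2.

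Per length, Nppb was the more abundant transcript in all 4 normoxic hearts and Nppa in 3 of 4 hypoxic hearts. The FPKM of Nppa in normoxia libraries 1 to 4 was 35.1, 74.4, 82.5 and 50.5, and that of Nppb was 122, 267, 118 and 115. In hypoxia libraries 1 to 4 the FPKM of Nppa was 215, 359, 199 and 343, and that of Nppb was 601, 238, 92.2 and 196. The ratio of Nppb to Nppa FPKM was 3.48, 3.60, 1.43 and 2.28 in normoxia libraries 1 to 4. It was 2.79, 0.663, 0.464 and 0.572 in hypoxia libraries 1 to 4. Hypoxia library 1 kept a ratio inside the normoxia range, and the other 3 lay below every normoxic heart.

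The geometric mean of this ratio was 2.53 in normoxia and 0.837 in hypoxia. The mean log2 ratio was 1.34 ± 0.62 in normoxia and −0.26 ± 1.18 in hypoxia (SD), a difference of −1.59 (SE 0.67, n = 4 each) that did not pass a two-sided exact permutation test over 70 assignments of the libraries (p = 0.0857, where the smallest possible is 0.0286). Without hypoxia library 1 the difference was −2.17 (exact permutation p = 0.0286, the smallest 4 against 3 libraries can give). Library 1 was the only hypoxic heart inside the normoxia range, so leaving it out fixed that p in advance and adds no support. With any other library left out, the exact permutation p was 0.0857 to 0.143. That Nppa passed the test and Nppb did not is thus no evidence by itself that the genes responded by different amounts, and the ratio was the 1 test of that difference. Summed over both genes, FPKM was 157 to 342 in normoxia and 291 to 816 in hypoxia, which overlapped.

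**Figure D2:**
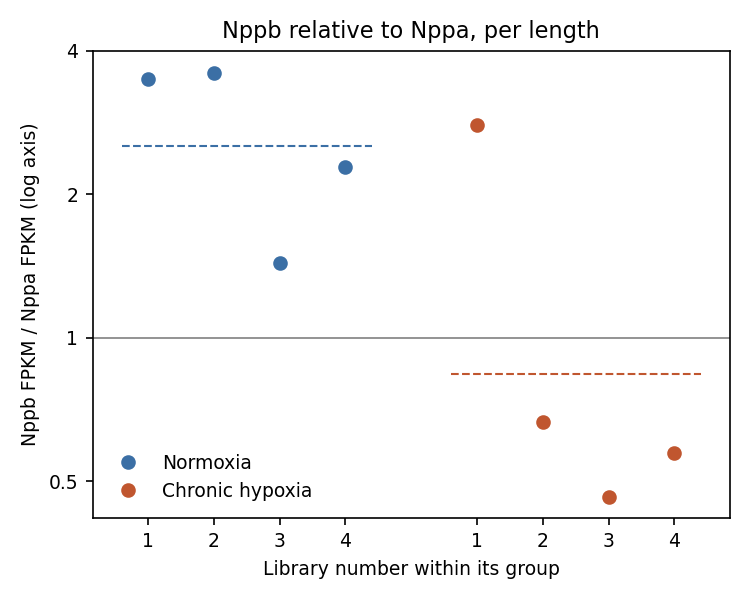
Ratio of Nppb to Nppa FPKM in each library, on a log axis, with normoxia in blue and chronic hypoxia in orange. Dashed lines are geometric group means (2.53 and 0.837) and the grey line marks equal FPKM. Hypoxia library 1, at 2.79, lies among the normoxic hearts, and the other 3 hypoxic hearts lie below 1.

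Among all genes ordered by FPKM within a library, Nppa moved from rank 596 to 1532 in normoxia to rank 150 to 303 in hypoxia. Nppb was at rank 191 to 432 in normoxia and 106 to 540 in hypoxia. Nppa took 0.00311% to 0.00731% of all counts in normoxia and 0.0176% to 0.0318% in hypoxia. Nppb took 0.00773% to 0.0180% in normoxia and 0.00620% to 0.0404% in hypoxia. Neither transcript was therefore a large part of any library.

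Set against the other genes, the rise of Nppa was among the largest of all genes tested. Nppa had the 84th largest log2 fold change of 14214 genes, and 99.4% of genes had a smaller one. Among the 349 genes with a hypoxic mean CPM at least that of Nppa, itself included, 146 were called higher. Only 2 of them, Nppa included, had a log2 fold change at least as large. Nppa entered this set by its hypoxic mean, as its normoxic mean was 50.5 CPM. By gain in mean CPM, 216 CPM for Nppa, it ranked 65th. The median gene called higher rose 1.56-fold. The estimate for Nppb, which was not called, was larger than that of 95.7% of genes.

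Both genes have short gene models, 887 bp for Nppa and 672 bp for Nppb (recovered from counts, FPKM and library totals), and short gene models tended to be higher in these hypoxic hearts. When the tested genes were put into 10 bins of equal size by length, both fell in the shortest, which spans 49 to 889 bp. Of its 1422 genes, 484 were called higher in hypoxia against 96 lower, and their median log2 fold change was 0.35. In that bin 18 genes, Nppa included, rose by at least as much as Nppa, and 122, Nppb included, had a log2 fold change at least as large as that of Nppb. With each library's trend with length removed, Nppa rose by 2.16 on the log2 scale (SE 0.31, edgeR adjusted p = 0.00162). For Nppb the value was then 0.71 on that scale (SE 0.46), which did not pass (edgeR adjusted p = 0.280).

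**Figure D3:**
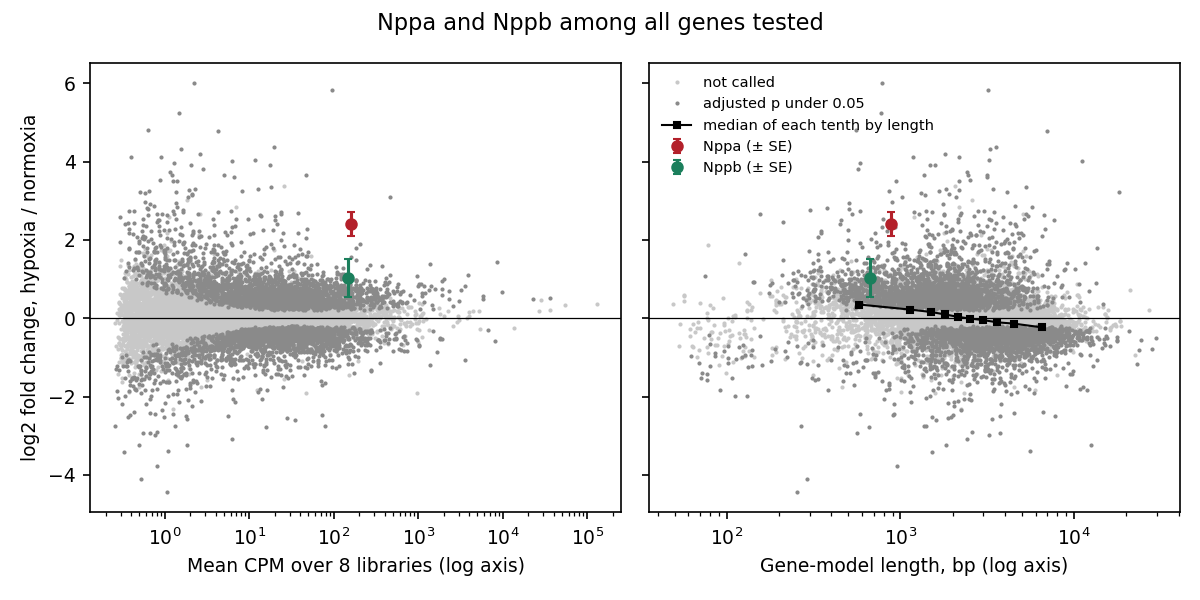
Log2 fold change (hypoxia over normoxia) of all 14214 genes tested against mean CPM (left) and gene-model length (right), both on log axes, with called genes in dark grey. Nppa (red) and Nppb (green) carry bars of 1 SE, and black squares join the medians of the 10 length bins. Nppa, at 2.40, lies above nearly all genes tested, those of its length included, and Nppb, at 1.03, lies nearer to them with a wider error.

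Leaving out hearts left Nppa called and changed Nppb. With any 1 library left out, the log2 fold change of Nppa was 2.21 to 2.58. Without hypoxia libraries 1 and 2 it was 2.35, and without hypoxia libraries 3 and 4 it was 2.44 (edgeR adjusted p = 5.64e-04 and 4.99e-04). For Nppb the value fell to 0.39 without hypoxia library 1 (edgeR adjusted p = 0.469). Without hypoxia library 3, the lowest, Nppb had a value of 1.33 and passed (edgeR adjusted p = 0.0303). Without hypoxia libraries 1 and 2 it was 0.08 (edgeR adjusted p = 0.887), and without hypoxia libraries 3 and 4 it was 1.58 and passed (edgeR adjusted p = 0.0102). Each of these fits kept only 2 hypoxic hearts. Libraries 1 and 2 were the highest hypoxic hearts in Nppb and libraries 3 and 4 the lowest, so both shifts follow from which pair was left out. The group estimate for Nppb therefore rested on which hypoxic hearts were counted.

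**Figure D4:**
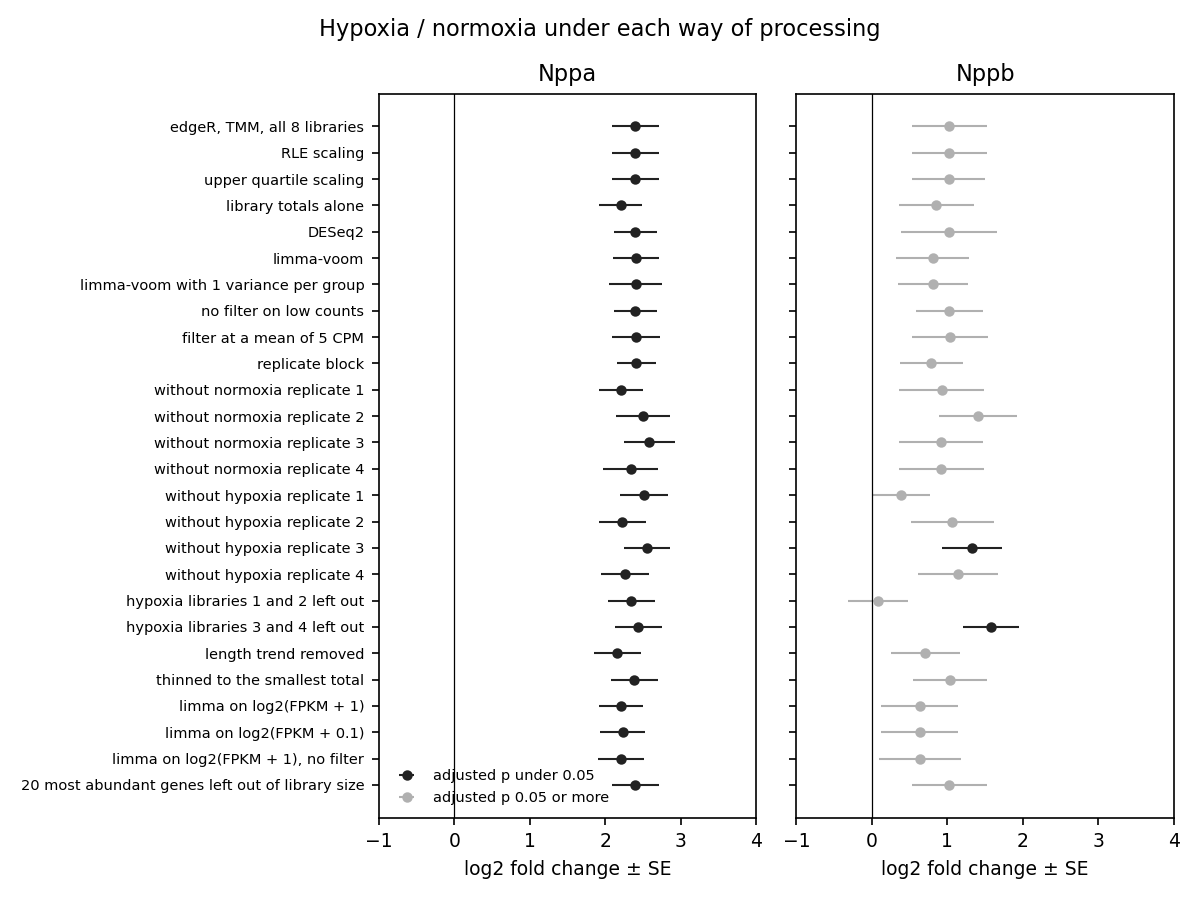
Log2 fold change (hypoxia over normoxia) of Nppa (left) and Nppb (right) with bars of 1 SE under each way of processing. Black points passed an adjusted p of 0.05 and grey points did not. Nppa stays between 2.16 and 2.58 and passes in each, while Nppb runs from 0.08 to 1.58 and passes only without hypoxia replicate 3 or without hypoxia libraries 3 and 4.

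The genes whose pattern was most like that of Nppa were sought among 12658 other genes whose mean CPM was 1 or more. The measure was the root mean square difference over the 8 libraries between log2 CPM profiles, each taken relative to its own normoxia mean, and is a description with no test. The nearest was ENSRNOG00000015550, at 0.42, with 1.70 to 2.79 CPM in normoxia and 7.12, 9.66, 9.96 and 15.4 CPM in hypoxia libraries 1 to 4. Next was ENSRNOG00000013744, at 0.50, with 5.60 to 7.39 CPM in normoxia and 21.0, 34.5, 40.5 and 67.7 CPM in hypoxia libraries 1 to 4. Both rose in every hypoxic heart, which follows from picking genes close to the Nppa profile. In both genes hypoxia library 4 was highest and library 1 lowest, an order that differs from that of Nppa. Their symbols are not given by the files.

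Nppb was not among the genes most like Nppa. The distance between the profiles of Nppa and Nppb was 1.39, and 1350 genes lay nearer to Nppa than Nppb did, against a median distance of 1.77 over all genes compared. Seen from Nppb, the nearest gene lay at 0.36 and the fifth nearest at 0.48. From that side the median distance was 0.99, and 11968 genes lay nearer to Nppb than Nppa did. A profile that stays at its normoxia mean in every library would lie 0.96 from Nppb and 1.76 from Nppa. The measure thus counts the size of a change as well as its order over the hearts, and genes that hardly changed lie nearer to Nppb than Nppa does.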

How the data were processed

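RNA was sequenced from the hearts of 8 rats, 4 per group, grouped by the labels' titles. Trizol extraction of total RNA and NEBNext Ultra RNA library preparation are stated per the labels' protocols. The authors deposited whole-number read counts per gene, not normalized, and FPKM values. Count divided by FPKM and library total returned 1 whole length per gene (100% of values above 0 within a relative 0.001), so the deposited FPKM hold counts scaled by total and length alone. HISAT2 2.1.0, Bowtie2 2.2.3, bcl2fastq and HTSeq 0.6.0 appear, with build rn6, per the submitters' processing notes. The sources used here do not give their roles, the annotation release, strand setting or treatment of multi-mapping reads, so antisense or overlapping transcripts cannot be separated from these genes.

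Counts were fitted with edgeR 4.0.16 in R 4.3.3 (filterByExpr minimum count 10, TMM, quasi-likelihood test, group only, Benjamini-Hochberg over 14214 genes), after testing on simulated data. Each SE was derived from the F statistic, and log2 CPM had a prior count of 2. The ratio of the genes, 1 test, used a two-sided exact permutation test. Python 3.11.15, numpy 2.4.6, pandas 2.3.3, scipy 1.17.1 and matplotlib 3.10.9 were used. Alternatives were RLE, upper quartile and library-total scaling, DESeq2 1.42.0, limma 3.58.1 (voom, or log2 FPKM with pseudocounts of 1 or 0.1), other filters, thinning, a replicate block, a length correction (lowess, span 0.3), the 20 most abundant genes left out of library size, and libraries left out.

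The members, lists and alternatives were chosen with earlier results of these data known. The naming rule took Nppa, Nppb, members of pathway lists and the genes with the most similar profiles, and, without symbols, at most 2 IDs that rose and 2 that fell. The 18 lists of pathway and cell type genes had no matched member and were not used. Libraries were treated as separate animals, since the extraction protocol in the labels counts 4 rats per group.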

Additional observations from a re-analysis of the deposited data

Results flagged for a closer look

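Normoxia library 2 stood apart from the other normoxic hearts in Nppb. Its log2 CPM of 7.38 left a gap to the next library that was 0.961 of the whole range of the 4. The others lay at 6.22 to 6.26. Nppa in the same heart, at 61.0 CPM, lay inside the range of the other normoxic hearts. Without this library the log2 fold change of Nppb was 1.41 and still did not pass (edgeR adjusted p = 0.0763). Of 6 groups of 4 checked, 1 was marked in this way. Chance marks about 1 in 20 single groups of normally spread values, so 1 mark among 6 groups is not rare. The groups were not independent either, as those of the ratio reuse the values of both genes.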

How the results depend on the processing

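Nppa kept its direction and its call in all 25 alternatives, with log2 fold changes of 2.16 to 2.58 and adjusted p of 4.14e-15 to 0.00469. Nppb kept its direction in the same 25 and its side of the threshold in 23, at 0.08 to 1.58 with adjusted p of 0.0102 to 0.887. The 2 that passed were without hypoxia library 3 and, at 1.58, without hypoxia libraries 3 and 4. With 1 library left out in turn, Nppb ranged from 0.39 to 1.41. DESeq2 gave Nppb 1.03 (adjusted p = 0.203) and limma on log2(FPKM + 1) gave 0.63 (adjusted p = 0.337). The log2 difference of the Nppb to Nppa ratio ranged from −2.17 to −1.31 with 1 library left out, and passed only without hypoxia library 1. The number of genes called was 4693 and ran from 3315 to 5982. Of these calls, 53.6% were higher in hypoxia under TMM and 26.9% under library totals. The latter put the all-gene median at −0.17 on the log2 scale, with Nppa at 2.20 and Nppb at 0.86. With the replicate number as a block, Nppa was at 2.41 (edgeR adjusted p = 0.00337), Nppb at 0.79 (edgeR adjusted p = 0.196) and 3841 genes were called. The ratio difference with same-numbered libraries paired was −1.59 (exact sign-flip permutation p = 0.125). That p is the smallest that 4 pairs can give, so this paired test could not pass. Same-numbered libraries did not deviate together (correlations of −0.0847 to 0.0187), and in normoxia 0 of 4 libraries correlated best with their own number. The alternatives for gene lists were not run, for want of symbols. The 95% counting intervals had half-widths of at most 6.33% of the value for either gene.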
